A study of Mus musculus with 8 samples.

Results

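The 4 mouse Hox clusters, HoxA, HoxB, HoxC and HoxD, were followed through a chromatin immunoprecipitation sequencing (ChIP-seq) data set of embryonic fibroblasts. Each cluster was taken as a fixed window of build mm9: chr6:52100000-52225000 for HoxA, chr11:96050000-96235000 for HoxB, chr15:102730000-102880000 for HoxC and chr2:74480000-74610000 for HoxD. The windows held 590 bins of 1 kb, of 2410276 bins in the genome with a read in any library, and they stand for 38 genes (10 in HoxA, 10 in HoxB, 9 in HoxC and 9 in HoxD). The fibroblasts came from E13.5 embryos that were either wild type or E2f3-/-, which lack the transcription factor E2F3. Chromatin was precipitated with an antibody against E2F3, against HELLS, against trimethylated lysine 27 of histone H3 (H3K27me3), or with IgG as the background. Each of these 8 groups was 1 sample, and the 2 IgG files held identical reads, so 1 background served both genotypes. Whether that IgG file is a single library or a pool was not tested. The labels do not say how many embryos or cultures stand behind a library. Every difference below therefore compares 2 libraries and has no replicate check. Values in brackets are exact 95% intervals, which hold counting error alone.

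Hox genes encode homeodomain transcription factors that give cells their position along the body axis. They lie in order in each cluster: genes at one end, such as Hoxb1 and Hoxa2, act toward the head, and genes at the other end, such as Hoxa13 and Hoxd13, act in the distal limb, tail and genital region. H3K27me3 is laid down by Polycomb repressive complexes and is a classic mark of silent Hox genes, which it can cover as one long domain. HELLS is a helicase of the SNF2 family that takes part in DNA methylation and chromatin remodelling, and E2F3 is an E2F family factor known for the control of cell cycle genes. The series title links HELLS with E2F3. In fibroblasts, the part of each Hox cluster that is silent depends on where in the embryo the cells came from, and a mixed culture can hold both states.

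The order of the genes was read from RefSeq (GRCm38.p6) and runs from Hoxa2 to Hoxa13, from Hoxb13 to Hoxb1, from Hoxc13 to Hoxc4 and from Hoxd13 to Hoxd1 with increasing coordinate. Gene positions in mm9 were not used, so bins and peaks are given by mm9 position and are not assigned to single Hox genes. Promoter sequences, 250 bases before to 50 bases after a start, were matched for 22 of the 38 genes, with 24 starts. Of HoxB only Hoxb1, Hoxb4 and Hoxb8 were matched, and of HoxC only Hoxc4, so most starts are of HoxA and HoxD. The matched sequences varied in their content of the dinucleotide CG. The median observed-to-expected CG ratio was 0.626, against 0.384 over all 32851 mouse promoters, and 12 of 24 reached 0.6, against 35.8% of all promoters. With 24 starts this difference is a description and was not tested. Some starts lay below the median of all promoters, such as Hoxa9 (0.280) and Hoxc4 (0.333). The 250 bases before the start are shown for the 2 extremes, because CG-rich promoters are common carriers of H3K27me3. Capitals mark each CG.

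Hoxa5: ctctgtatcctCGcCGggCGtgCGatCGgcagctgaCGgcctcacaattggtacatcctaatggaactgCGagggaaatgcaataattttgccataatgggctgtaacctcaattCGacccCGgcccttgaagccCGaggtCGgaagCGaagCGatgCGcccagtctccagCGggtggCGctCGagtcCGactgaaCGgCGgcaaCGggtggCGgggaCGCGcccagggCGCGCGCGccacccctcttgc

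Hoxd11: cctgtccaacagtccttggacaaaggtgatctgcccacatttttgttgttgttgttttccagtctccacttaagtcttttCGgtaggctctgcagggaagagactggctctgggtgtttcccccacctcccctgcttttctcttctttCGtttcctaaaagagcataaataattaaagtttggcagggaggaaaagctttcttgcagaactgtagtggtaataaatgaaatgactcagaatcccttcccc

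Hoxa5, a gene of the lung and cervical region, had the highest ratio (1.02). One of the 2 listed starts of Hoxd11, a gene of forearm patterning, had the lowest (0.257), while the other start had 0.875. The E2F motifs TTTCCCGC, TTTGGCGC and TTTCGCGC, searched on both strands, were in 0 of 24 Hox promoters and in 1.84% of all promoters of the same length. With 24 promoters, 0 does not stand apart from that share.

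Distinct reads per library ranged from 3799779 to 5640555 for the 6 ChIP libraries, and the IgG library held 7219419. Ratios of E2f3-/- to wild type were scaled on the reads outside all peaks of the series. As a check of the genotype labels, the E2F3 antibody gave 8889 wild-type and 3314 E2f3-/- peaks over the series. Cell type markers cannot be read from ChIP libraries of this kind, so the fibroblast label was not checked.

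H3K27me3 lay in long blocks of the Hox windows in wild-type fibroblasts, well above IgG, and was lower there in the E2f3-/- library. The authors' wild-type list held 202 H3K27me3 peaks in the windows, which covered 32.4% of the sequence, against 124 peaks and 14.4% in E2f3-/- cells. In wild type, cover was 37.1% in HoxD, 35.6% in HoxA, 29.9% in HoxC and 29.0% in HoxB. In E2f3-/- cells it was 15.4% in HoxD, 12.4% in HoxA, 16.5% in HoxC and 13.3% in HoxB. By peak cover the order of the clusters was not kept: HoxC, behind HoxD and HoxA in wild type, was first in E2f3-/- cells. In E2f3-/- reads over the whole windows HoxD stayed above HoxC, at 12.6 and 11.1 reads per kb. Of the 124 E2f3-/- peaks, 86 exceeded a false discovery rate of 5% in the authors' list, and of the 202 wild-type peaks 0 did. The 86 were 30 of 39 peaks in HoxC, 15 of 24 in HoxD, 12 of 20 in HoxA and 29 of 41 in HoxB.

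Bins with at least 500 bp inside wild-type H3K27me3 peaks are called marked here, and bins free of H3K27me3 peaks of both genotypes unmarked. There were 207 marked bins (35.1%), 244 unmarked bins and 139 in between. HoxA had 47 marked bins, HoxB 58, HoxC 49 and HoxD 53. Marked bins held a median of 37 wild-type H3K27me3 reads (lowest 12, highest 235), and a median of 15 in E2f3-/- cells (lowest 1, highest 81). Unmarked bins held medians of 7 and 6 reads, all counts unscaled. The 2 classes were thus well separated in wild type, by construction, and lay closer together in the E2f3-/- library.

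**Figure D1:**
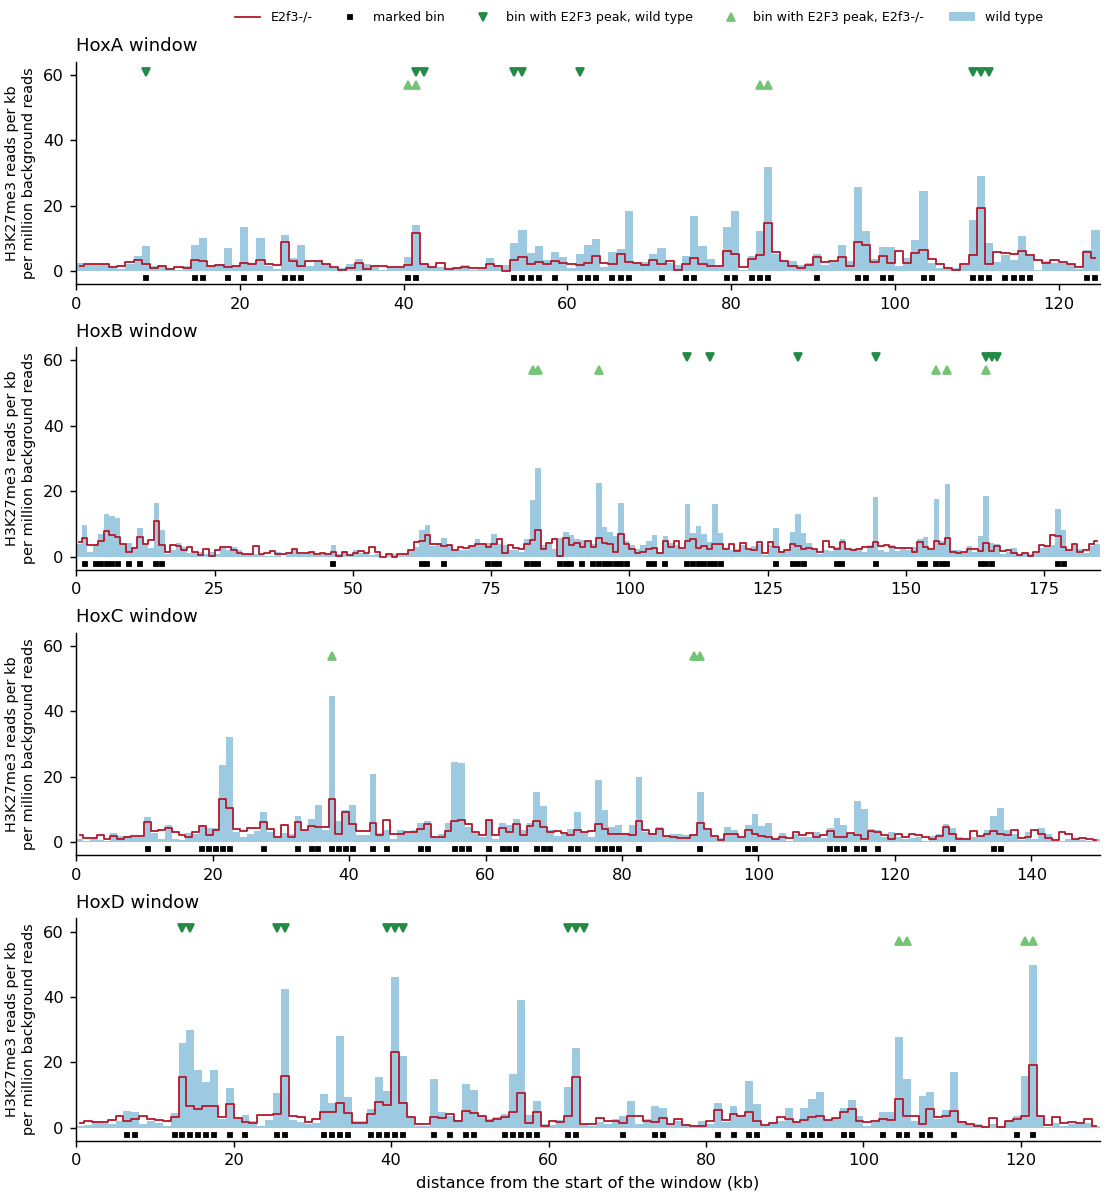
H3K27me3 reads per kb, scaled to the library's reads outside peaks (y axis) in each 1 kb bin against the distance from the start of the window (x axis), with wild type as bars and E2f3-/- as a red line. Black squares are marked bins and triangles are bins with an E2F3 peak of either genotype; the tallest wild-type bar, with 235 reads, is in HoxD, and HoxC has no wild-type E2F3 peak.

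The tallest wild-type bin of the windows lay in HoxD at chr2:74601001-74602000, with 235 H3K27me3 reads against 67 in E2f3-/- cells and 19 IgG reads. HoxC peaked at chr15:102767001-102768000 with 211 against 46 reads, HoxA at chr6:52184001-52185000 with 151 against 52, and HoxB at chr11:96133001-96134000 with 128 against 29. The tallest E2f3-/- bin lay elsewhere in 3 clusters and tied in HoxC. It was chr2:74520001-74521000 in HoxD (81 reads, 218 in wild type), chr6:52210001-52211000 in HoxA (68 and 138), chr15:102751001-102752000 in HoxC (46 and 112) and chr11:96064001-96065000 in HoxB (38 and 77). Across the 590 bins the 2 H3K27me3 libraries ran in parallel (Spearman's rho 0.712), as a description of bins that neighbour each other and share base composition and mappability.

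Over the whole windows, 14565 wild-type and 6513 E2f3-/- H3K27me3 reads gave a ratio of 0.601 (0.583 to 0.618), but 1.21 when libraries were scaled on the median of the regions listed in both genotypes. This shared-median scaling sets the median ratio of those regions to 1, so it cannot show a change that they have in common. By class the values differed. In marked bins the scaled ratio was 0.441 (0.425 to 0.459), from 51.6 to 17.0 unscaled reads per kb, and 0.892 with the shared-median scaling. The E2f3-/- library was below wild type in 198 of the 207 marked bins. Bins in between gave 0.976 (0.911 to 1.05), and unmarked bins 1.10 (1.03 to 1.18), with 7.85 and 6.45 unscaled reads per kb. The shared-median scaling put these at 1.97 and 2.23. Marked bins had been chosen on the wild-type peaks, which leans their ratio down. Bins chosen in the same way on the E2f3-/- peaks gave 0.481.

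The comparison of marked with unmarked bins inside a library needs no scaling. H3K27me3 was 6.58-fold (6.26 to 6.91) denser in marked than in unmarked bins in the wild-type library, against 2.63-fold (2.48 to 2.79) in the E2f3-/- library. The ratio of these contrasts was 0.400 (0.370 to 0.432). The choice of marked bins on wild-type peaks leans this ratio down as well. The IgG library was itself 2.02-fold (1.86 to 2.18) denser in marked bins. Divided by IgG, the H3K27me3 contrast was 3.26 (2.97 to 3.58) in the wild-type library, against 1.30 (1.18 to 1.44) in the E2f3-/- library. The part of the IgG pattern in the H3K27me3 result was not tested. Among marked bins the ratio of E2f3-/- to wild type went with the IgG level: it was 0.716 (0.617 to 0.828) in the 20 bins with 0 to 3 IgG reads, 0.512 (0.478 to 0.548) in 87 bins with 4 to 7, and 0.390 (0.371 to 0.410) in 100 bins with 8 or more. Wild-type H3K27me3 in marked bins was higher along the same steps, at 26.6, 35.3 and 70.8 reads per kb. In unmarked bins the ratios also fell along these steps, at 1.17 (1.05 to 1.31), 1.11 (1.01 to 1.23) and 0.936 (0.788 to 1.11). Those intervals overlap. Wild-type H3K27me3 there was 6.08, 8.64 and 11.9 reads per kb. The cause of either order was not tested.

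In all 4 clusters the contrast was smaller in E2f3-/- cells, a comparison that the choice of marked bins on wild-type peaks leans down. The ratio of E2f3-/- to wild-type contrasts was 0.338 (0.286 to 0.400) in HoxD, 0.391 (0.340 to 0.451) in HoxB, 0.432 (0.365 to 0.513) in HoxA and 0.459 (0.392 to 0.538) in HoxC. In marked bins alone, unscaled H3K27me3 went from 65.4 to 20.1 reads per kb in HoxD, from 49.0 to 17.0 in HoxC, from 48.7 to 16.4 in HoxA and from 43.7 to 14.5 in HoxB. The E2f3-/- library was smaller, at 0.745 of the wild-type reads outside peaks. Scaled, the ratios were 0.413 in HoxD, 0.467 in HoxC, 0.452 in HoxA and 0.447 in HoxB. By reads per kb HoxD was thus the most densely marked cluster in both libraries and HoxB the least. Over IgG the lowest was HoxA, at 7.54-fold (6.81 to 8.36) in wild type and 3.41-fold (3.03 to 3.84) in E2f3-/- cells. HoxB was at 9.05-fold and 4.04-fold, HoxC at 9.55-fold and 4.46-fold, and HoxD at 10.8-fold and 4.47-fold. Whole-window ratios differed between clusters in a test that needs no scaling: that of HoxB (0.667) was 1.27 times (1.17 to 1.38) that of HoxD (0.524), and that of HoxC (0.647) was 1.23 times (1.14 to 1.34) that of HoxD. HoxA (0.572) had 0.858 times (0.787 to 0.934) the ratio of HoxB. Within marked bins, 1 of the 6 pairs of clusters had an interval that excludes 1, HoxC over HoxD at 1.13 (1.02 to 1.26). With the shared-median scaling the whole-window ratios were 1.06 in HoxD, 1.16 in HoxA, 1.31 in HoxC and 1.35 in HoxB. That scaling multiplies all clusters by the same factor, so it cannot change their order.

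**Figure D2:**
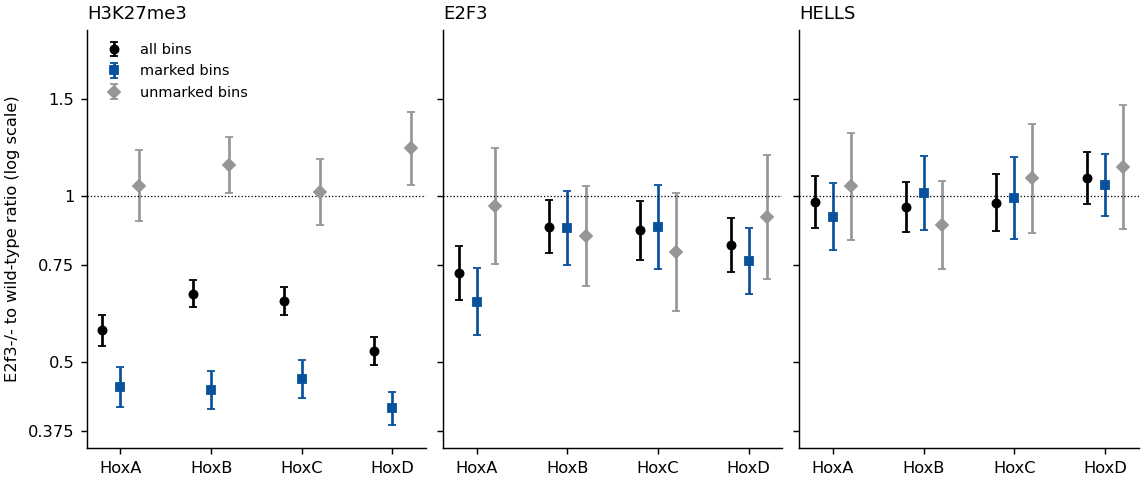
Ratio of E2f3-/- to wild-type reads (y axis, log scale) for each antibody and cluster (x axis), over all bins, marked bins and unmarked bins, scaled on reads outside peaks; error bars are exact 95% counting intervals. H3K27me3 is at 0.413 to 0.467 in marked bins and lies at 1.02 to 1.22 in unmarked bins; scaling on shared regions turns the all-bin H3K27me3 and E2F3 ratios above 1.

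Runs of marked bins, joined over gaps of up to 2 bins, formed 50 stretches, 23 of them 5 kb or longer. All 23 had H3K27me3 ratios below 1 with intervals that exclude 1 (0.344 to 0.722, median 0.459), although with the shared-median scaling 16 lay below 1 and 7 above. The stretches were built on wild-type H3K27me3 peaks, which leans their ratios down. In each cluster the longest stretch and those with the lowest and highest ratio are described.

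The longest, 28 kb, lay in HoxC at chr15:102785001-102813000. It held 1003 wild-type and 394 E2f3-/- H3K27me3 reads and 176 IgG reads, a ratio of 0.528 (0.468 to 0.593). The lowest HoxC ratio was 0.389 (0.292 to 0.511) at chr15:102840001-102848000, with 235 and 68 reads, and the highest 0.552 (0.477 to 0.638) at chr15:102762001-102776000, with 649 and 267 reads. The intervals of these HoxC stretches overlap.

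HoxA spread further. Its longest stretch, chr6:52153001-52168000, held 490 and 155 H3K27me3 reads (0.425, 0.352 to 0.510). The lowest ratio was at chr6:52171001-52176000, with 152 and 41 reads (0.362, 0.250 to 0.514). The highest, 0.675 (0.564 to 0.806), was at chr6:52209001-52217000, with 376 and 189 reads. The lowest and highest intervals of HoxA do not overlap, but these stretches were picked as extremes, so this does not test a difference.

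HoxB had the highest of all, 0.722 (0.541 to 0.958), at chr11:96112001-96117000, with 145 and 78 reads. Its longest stretch, chr11:96051001-96066000 at one edge of the window, was nearly as high at 0.687 (0.590 to 0.798), with 516 and 264 reads. The lowest HoxB ratio was 0.380 (0.297 to 0.482) at chr11:96160001-96167000, with 318 and 90 reads. The stretch in the middle of the window, chr11:96137001-96150000, had 0.478 (0.400 to 0.568), whose interval does not meet that of the edge. This stretch is outside the rule above and the comparison was not planned, so it is a description.

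HoxD held the lowest of all, 0.344 (0.268 to 0.436), at chr2:74534001-74539000, with 340 and 87 reads. Its longest stretch, chr2:74511001-74522000, had 754 and 262 reads (0.467, 0.404 to 0.538). The highest HoxD ratio was 0.539 (0.409 to 0.703) at chr2:74561001-74567000, with 197 and 79 reads.

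Cut into 5 equal segments, the windows differed in how far the H3K27me3 ratio varied along the cluster. In HoxB the second segment (chr11:96087001-96124000), with 10.8% marked bins, had 0.943 (0.803 to 1.11), and the third, with 56.8% marked bins, had 0.541 (0.484 to 0.603). In HoxC the first and last segments had 0.818 (0.718 to 0.932) and 0.878 (0.736 to 1.04), and the 3 between them 0.549 to 0.596. In HoxA the second segment had 0.782 (0.652 to 0.935) and the third 0.460 (0.393 to 0.537). HoxD was the most even, from 0.470 to 0.591. The least marked segment had the highest ratio in HoxB (10.8% marked) and HoxC (13.3%) but the lowest in HoxD (26.9% marked, 0.470), and in HoxA the 2 least marked segments, 24% each, had 0.542 and 0.782. The shared-median scaling cannot change the order of the segments, but it changes their level. With it HoxB ran from 1.09 to 1.91, HoxC from 1.11 to 1.77, HoxA from 0.930 to 1.58 and HoxD from 0.950 to 1.19.

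Joining wild-type H3K27me3 peaks less than 5 kb apart gave 471 domains longer than 10 kb in the genome, and the 3 longest lay in Hox clusters. They were chr15:102739957-102815610 in HoxC (75.7 kb), chr2:74485980-74554766 in HoxD (68.8 kb) and chr6:52153383-52216647 in HoxA (63.3 kb). The longest HoxB domain, chr11:96122563-96167262, had 44.7 kb and rank 12. The longest domain elsewhere had 60.8 kb. In all, 9 broad domains and 337 kb lay in the windows. In E2f3-/- cells 157 domains passed 10 kb, 6 of them (129 kb) in the windows. The longest of these, in HoxC (chr15:102740505-102775999, 35.5 kb), ranked second, and no HoxA domain passed 10 kb.

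The H3K27me3 ratio of the Hox domains was close to that of other broad domains. The ratio of E2f3-/- to wild type was 0.551 (0.532 to 0.570) over the 9 Hox domains and 0.530 (0.526 to 0.534) over the 462 others. Both sets of domains were built on wild-type peaks, which leans both ratios down. Their quotient, which needs no scaling, was 1.04 (1.00 to 1.08, just above 1 before rounding), and 0.994 (0.924 to 1.07) when peaks were joined across 2 kb. Read density was close too, with 33.1 and 34.4 wild-type reads per kb and 13.6 in both sets in E2f3-/- cells. Within the windows the 9 domains ranged from 0.464 (0.378 to 0.568), at chr6:52113957-52127704 in HoxA, to 0.735 (0.584 to 0.922), at chr11:96226845-96237640 in HoxB.

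Peaks of the 2 H3K27me3 lists merged into 224 regions in the windows. A region was called when the ratio passed 2-fold and its interval excluded 1. In E2f3-/- cells 95 of 224 (42.4%) were lower, against 41.3% of all 18563 H3K27me3 regions, and 6 (2.68%) were higher, against 2.75%. These shares were near the background. With the shared-median scaling 12 were lower and 35 higher. That scaling moved the median log2 ratio of all H3K27me3 regions from -1.19 to -0.18 and that of the Hox regions from -1.02 to -0.00. The Hox median was slightly above that of all regions. The change of scaling shifts all regions alike, so this gap is the same under both by construction. By cluster, 24 of 42 regions were lower in HoxA, 23 of 48 in HoxD, 27 of 71 in HoxB and 21 of 63 in HoxC.

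Of these regions, 77 were listed in both genotypes (30 lower), 118 in wild type only (65 lower, 0 higher) and 29 in E2f3-/- only (6 higher, 0 lower), so the direction of a call followed the list a region came from. The 77 shared regions carried most of the reads, 7481 in wild type and 2638 in E2f3-/-. The region with most wild-type reads was chr2:74519505-74522043 in HoxD, with 367 and 126 H3K27me3 reads (0.461, 0.374 to 0.566). In HoxC it was chr15:102750418-102752801 with 277 and 92 reads (0.446), in HoxA chr6:52182335-52186098 with 249 and 101 (0.545), and in HoxB chr11:96132092-96134471 with 223 and 52 (0.313). Among regions with at least 50 reads, the lowest ratio was 0.143 (0.0443 to 0.358), at chr15:102865184-102865757 in HoxC, with 47 and 5 reads. The highest was 1.16 (0.650 to 2.05), at chr11:96125547-96126786 in HoxB, with 29 and 25 reads.

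The E2F3 antibody gave a modest signal in the Hox windows, denser in the marked bins. Over the 590 bins the E2F3 antibody gave 2740 wild-type reads, 1.36-fold (1.29 to 1.43) over IgG, and 2158 E2f3-/- reads, 1.11-fold (1.05 to 1.17) over IgG. In wild type, marked bins had 8.09 and unmarked bins 2.61 E2F3 reads per kb. Divided by the IgG contrast, E2F3 was 1.54-fold (1.36 to 1.73) denser in marked than in unmarked bins in the wild-type library, against 1.35-fold (1.19 to 1.54) in the E2f3-/- library. A contrast was thus also measured in cells without E2F3, and the ratio between genotypes was 0.881 (0.767 to 1.01). Without the bins that hold an E2F3 peak the contrast was 1.15 (1.00 to 1.31) in the wild-type library, against 1.10 (0.956 to 1.27) in the E2f3-/- library.

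Marked bins of HoxA and HoxD gave the larger E2F3 values over IgG, with overlapping intervals. HoxA had 11.2 wild-type E2F3 reads per kb, 1.94-fold (1.71 to 2.20) over IgG, and 1.68-fold (1.47 to 1.92) without the bin of its highest peak. HoxD had 9.38 (1.74-fold, 1.53 to 1.97). HoxB had 6.34 (1.47-fold, 1.27 to 1.69) and HoxC 5.78 (1.26-fold, 1.07 to 1.47). In E2f3-/- cells the same bins lay between 1.11-fold (HoxC) and 1.32-fold (HoxD) over IgG, and the intervals of the 4 clusters overlapped. The contrast of marked with unmarked bins changed in HoxA, with a ratio between genotypes of 0.671 (0.507 to 0.890), or 0.713 (0.533 to 0.954) without the bins of its highest peak. In the other 3 clusters the interval of this ratio included 1.

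**Figure D3:**
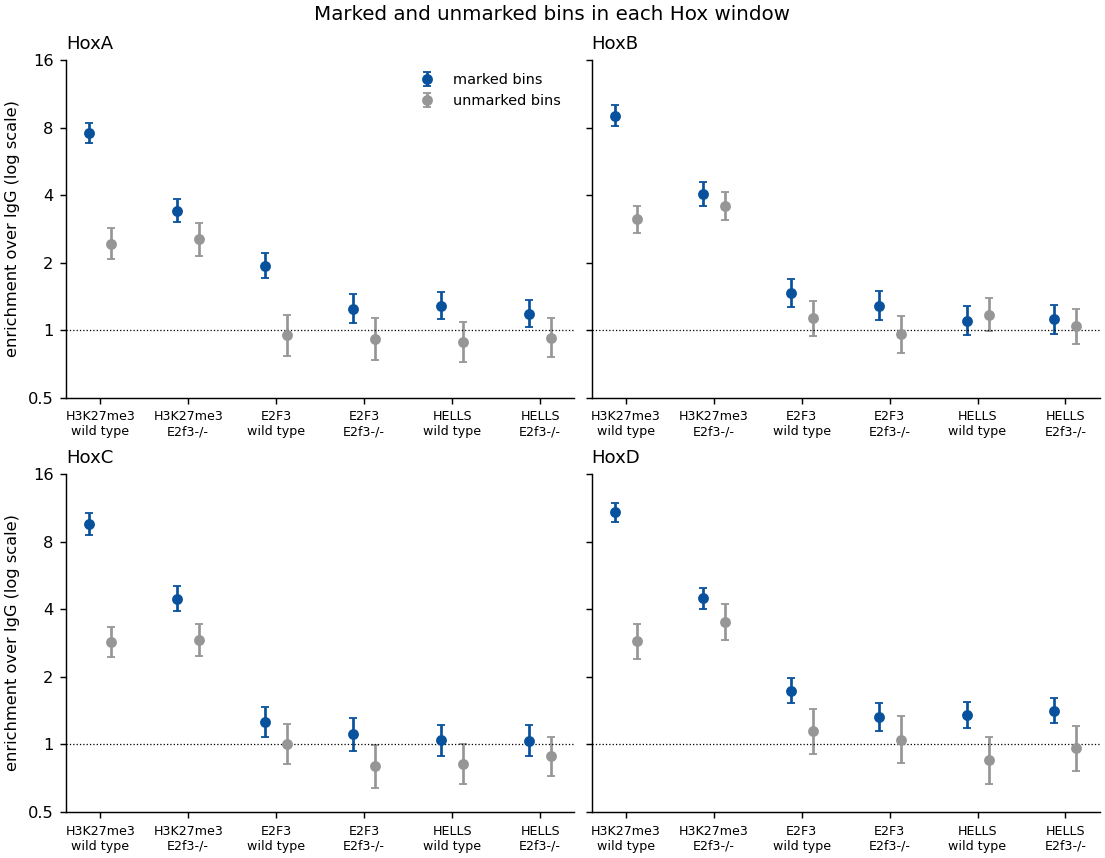
Enrichment over the IgG library (y axis, log scale) of each ChIP library (x axis) in marked and unmarked bins of the 4 Hox windows; error bars are exact 95% counting intervals and the dotted line is equality with IgG. H3K27me3 separates the classes clearly in wild type, and in the 4 clusters together the unmarked bins of E2F3 and HELLS lie at 0.923 to 1.06.

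Over all bins the ratio of E2f3-/- to wild-type E2F3 reads was 0.818 (0.773 to 0.866), and 1.83 with the shared-median scaling. That scaling sets the median ratio of the E2F3 regions listed in both genotypes to 1. A fall that these regions share cannot show under it. It put the unmarked bins, which lay at the IgG level in both libraries, at 1.95. Scaled on reads outside peaks, the ratio was 0.726 (0.649 to 0.811) in HoxA, 0.817 (0.730 to 0.915) in HoxD, 0.868 (0.767 to 0.981) in HoxC and 0.882 (0.788 to 0.985) in HoxB. HoxA was below HoxB (quotient 0.823, 0.702 to 0.965) and HoxC (0.836, 0.708 to 0.988), and its quotient with HoxD was 0.888 (0.757 to 1.04). Whether the intervals with HoxB and HoxC excluded 1 depended on 1 peak. Without the 2 bins of the highest HoxA peak, left out after seeing the data, these quotients were 0.892 (0.758 to 1.05) and 0.906 (0.764 to 1.07), still below 1. In the 41 bins with an E2F3 peak of either genotype the ratio was 0.676 (0.602 to 0.759), in the 26 with a wild-type peak, whose choice leans it down, 0.500 (0.431 to 0.579), and in the 3 HoxC bins, which hold E2f3-/- peaks alone, 1.45 (0.889 to 2.41). In the 549 bins with no E2F3 peak of either genotype it was 0.872 (0.817 to 0.931).

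The authors' lists held 19 wild-type E2F3 peaks in the windows, 7 in HoxA, 6 in HoxB, 6 in HoxD and 0 in HoxC. The E2f3-/- list held 11, 2 each in HoxA, HoxC and HoxD and 5 in HoxB. The authors' scores, 10 times the negative log10 of their p-value, had a median of 88.8 in wild type and 68.1 in E2f3-/- cells. Their false discovery rate passed 5% for 0 of the 19 and for 4 of the 11. All 19 and all 11 overlapped a wild-type H3K27me3 peak by at least 1 bp, against 20.4% and 23.9% of the E2F3 peaks elsewhere. The exact 95% interval of the 19 starts at 82.4% and that of the 11 at 71.5%. H3K27me3 peaks cover 32.4% of the windows, and the part of that cover in the overlap was not tested. Per length, broad H3K27me3 domains of the Hox clusters held 38.5 wild-type E2F3 peaks per Mb and other broad domains 26.8 (ratio 1.44, 0.753 to 2.51).

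One wild-type E2F3 peak stood apart. At chr6:52141750-52142258 in HoxA it had a score of 504, rank 685 of 8889 in the genome, and the next Hox peak had 161. It held 69 wild-type and 3 E2f3-/- E2F3 reads and 10 IgG reads, a ratio of 0.0452 (0.00910 to 0.138). HELLS gave 10 reads there in each genotype, and H3K27me3 gave 12 and 6. The peak shared 19 bp with a wild-type H3K27me3 peak next to it. An E2f3-/- E2F3 peak at chr6:52140993-52141694, 55 bp away on that H3K27me3 peak, held 21 E2F3 reads in each genotype, 17 and 26 HELLS reads and 62 and 37 H3K27me3 reads. That neighbour was also a HELLS peak in both lists. E2F3 reads were thus nearly absent from the E2f3-/- library at one position and as many as in wild type at the next.

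**Figure D4:**
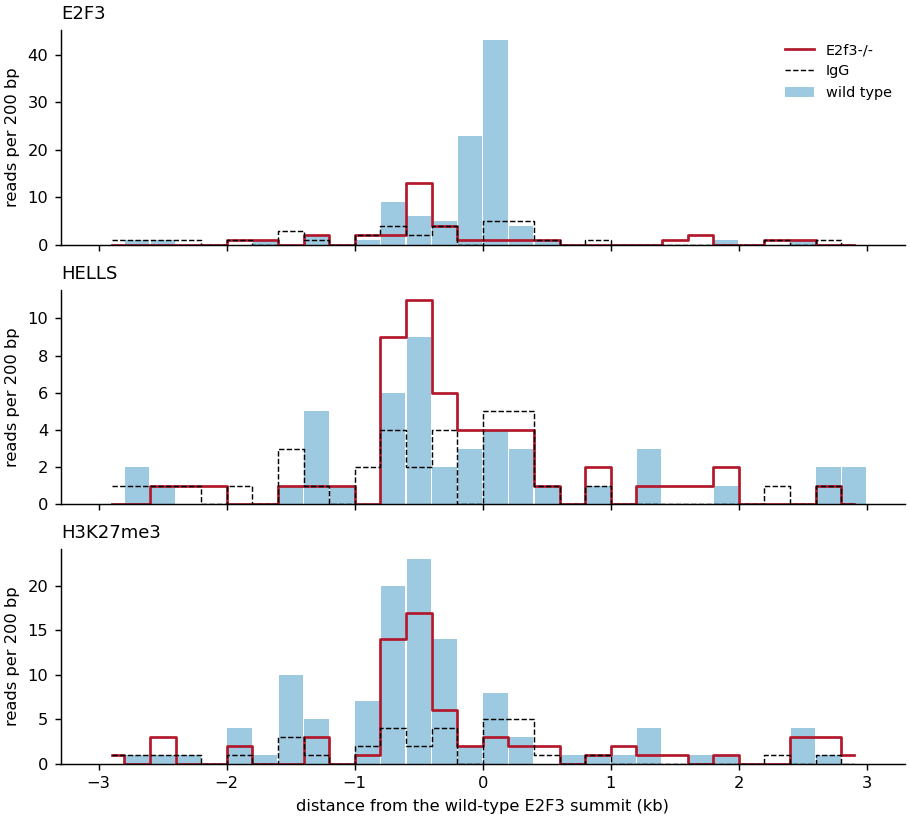
Reads per 200 bp (y axis) against the distance from the summit of the highest HoxA E2F3 peak (x axis, kb), for E2F3, HELLS and H3K27me3 in wild type (bars) and E2f3-/- (red line), with IgG dashed. The wild-type E2F3 bars of 43 and 23 reads at the summit meet 1 E2f3-/- read each, while HELLS and H3K27me3 are highest to the left of the summit.

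A second HoxA peak, chr6:52161606-52161975, held 24 wild-type and 0 E2f3-/- E2F3 reads and 7 IgG reads. The interval of its ratio runs from 0 to 0.173. HELLS had 2 reads there in each genotype and H3K27me3 10 and 3. The same call was passed by the HoxA peaks chr6:52154522-52154708, with 12 and 3 E2F3 reads, and chr6:52210000-52210768, with 31 and 11. Of all 19 wild-type peaks, 18 had a ratio below 1, and in 8 the interval excluded 1; the wild-type list fixes this lean.

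The HoxD peaks held HELLS reads as well. At chr2:74505754-74506828 there were 49 wild-type and 16 E2f3-/- E2F3 reads (0.339, 0.180 to 0.607), with 32 and 34 HELLS reads, 195 and 51 H3K27me3 reads and 16 IgG reads. At chr2:74543214-74544025 there were 50 and 13 E2F3 reads (0.270, 0.135 to 0.505), with 30 and 39 HELLS and 97 and 45 H3K27me3 reads. At chr2:74519904-74520273 the E2F3 reads were 26 and 12 (0.480, 0.220 to 0.985). HELLS had 14 and 10 reads and H3K27me3 86 and 28 there. At these 3 HoxD peaks the unscaled E2F3 and H3K27me3 counts were lower in E2f3-/- cells. The peaks were picked by their E2F3 call, which fixes the E2F3 direction. The E2f3-/- H3K27me3 library was also smaller, at 0.745 of the wild-type reads outside peaks. Unscaled HELLS counts were higher at 2 peaks and lower at 1, with no interval given, so no HELLS direction is read from them. The only HoxB peak that passed, chr11:96164420-96164660, had 10 and 2 E2F3 reads.

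One HoxB site was listed for E2F3 in both genotypes. The wild-type peak at chr11:96214338-96214760 held 15 E2F3 reads in each genotype and 14 and 13 HELLS reads, while H3K27me3 there went from 61 to 11 unscaled reads. It was the only one of 19 wild-type E2F3 peaks (5.26%, 0.133% to 26.0%) that overlapped an E2f3-/- E2F3 peak, against 28.3% elsewhere, 28.6% of those elsewhere on an H3K27me3 peak and 20.5% of those in other broad domains. The last of these lies inside the interval.

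Merged, the E2F3 lists gave 29 regions, of which 8 (27.6%, 12.7% to 47.2%) were lower in E2f3-/- cells, against 66.8% of all 9643 E2F3 regions, and 0 were higher, against 0.954%. No p-value is given, since each group is 1 library. The Hox regions had fewer wild-type reads, with a median of 21 against 38, and 45.8% of the regions elsewhere on an H3K27me3 peak and 39.2% of those in other broad domains were lower. Both of these shares lie inside the interval of the Hox regions. All 8 came from the wild-type list. The shared-median scaling left 2 lower and put 10 higher, and it moved the median log2 ratio of all E2F3 regions from -1.45 to -0.29 and that of the Hox regions from -0.71 to 0.45.

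The E2f3-/- E2F3 peaks in the windows had ratios from 0.940 to 3.64, 10 of 11 above 1, a lean that their own list fixes. The highest, chr6:52183800-52184845 in HoxA, held 29 wild-type and 35 E2f3-/- reads with 18 IgG reads. The next were chr11:96132703-96133418 in HoxB with 21 and 19, and chr2:74600757-74601751 in HoxD with 25 and 31. The 2 HoxC peaks, chr15:102767135-102767797 and chr15:102820889-102821373, held 14 and 22, and 9 and 11 reads. The largest ratio belonged to chr11:96205602-96205942 in HoxB, with 2 and 7 reads. None of the 11 intervals excluded 1, which does not show that the libraries were alike there. Over the 11 peaks H3K27me3 went from 1216 to 312 unscaled reads.

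**Figure D5:**
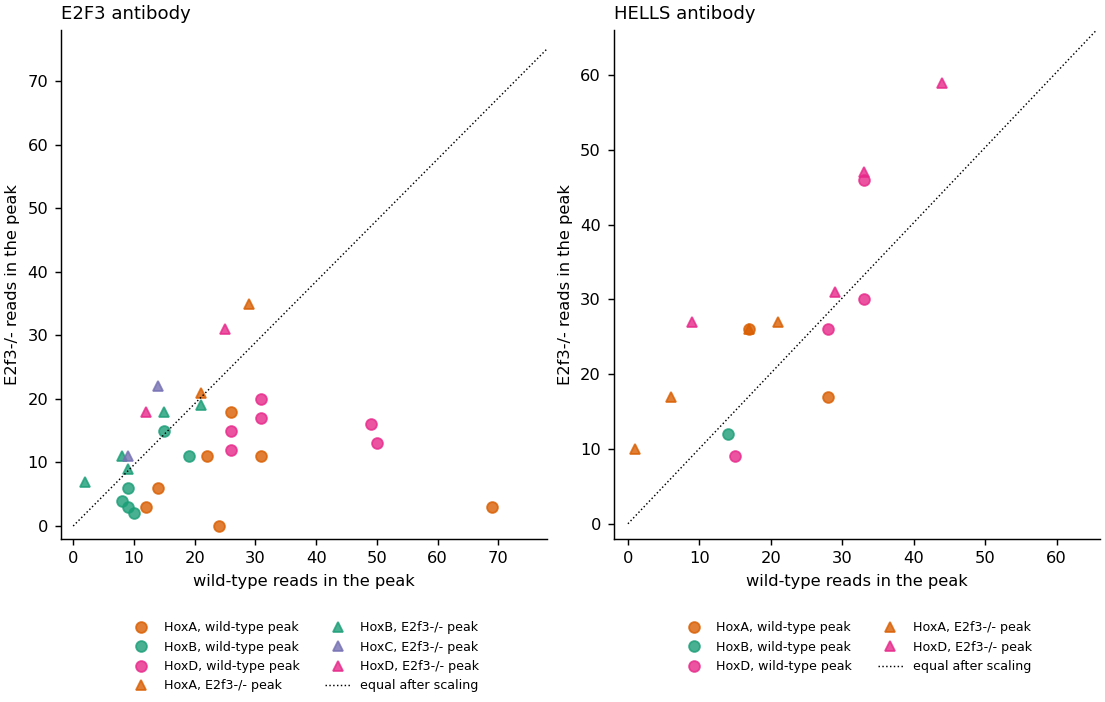
E2f3-/- reads (y axis) against wild-type reads (x axis) in each E2F3 peak (left) and HELLS peak (right) of the Hox windows, by cluster and by the list that held the peak; the dotted line marks equality after scaling on reads outside peaks. The HoxA E2F3 peak with 69 and 3 reads lies far to the right, and most peaks lie on the side of the line of the list that held them.

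HELLS in the Hox windows was little above IgG and differed little between the genotypes. The libraries gave 2647 wild-type and 2655 E2f3-/- reads, 1.10-fold (1.05 to 1.16, and 1.04 to 1.16) over IgG in both. The ratio was 0.996 (0.944 to 1.05), and 0.879 (0.832 to 0.928) with the shared-median scaling. Marked bins had 7.16 and 7.17 HELLS reads per kb and unmarked bins 2.80 and 2.84. Over IgG the contrast was 1.27 (1.13 to 1.44) in the wild-type library, against 1.25 (1.11 to 1.42) in the E2f3-/- library, and the ratio between them was 0.987 (0.867 to 1.12). The H3K27me3 contrast ratio was 0.400, with an interval that ends at 0.432, and the HELLS interval starts at 0.867. The marked bins were chosen on wild-type H3K27me3 peaks, which leans the H3K27me3 ratio down, and not on HELLS reads. The intervals are thus not alike in how their bins were chosen, and the size of that lean was not tested.

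HELLS over IgG had its largest values in HoxD, with intervals that overlap those of HoxA. Its marked bins had 8.66 wild-type and 9.15 E2f3-/- HELLS reads per kb, 1.35-fold (1.18 to 1.54) and 1.42-fold (1.24 to 1.61) over IgG. HoxA had 1.29-fold (1.12 to 1.48) and 1.18-fold (1.03 to 1.36). In HoxB (1.11-fold and 1.12-fold) and HoxC (1.04-fold in both) the intervals of the marked bins included 1. Over the whole HoxB window, wild-type HELLS was 1.13-fold (1.02 to 1.24) over IgG. The ratio of genotypes for HELLS differed between no pair of clusters by an interval that excludes 1, whole windows or marked bins.

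The HELLS lists held 7 wild-type and 8 E2f3-/- peaks in the windows, all 15 of them on wild-type H3K27me3 peaks, and none in HoxC. Of the 7, 4 lay in HoxD, 2 in HoxA and 1 in HoxB. Of the 8, 4 lay in HoxD and 4 in HoxA. The authors' rate of false discovery passed 5% for 4 of the 7, the HoxB peak among them, and for 0 of the 8. Among wild-type HELLS peaks, 5 of 7 overlapped a wild-type E2F3 peak, a share of 71.4% against 65.8% elsewhere. The highest HELLS peak of the wild-type list was at the HoxB site shared by E2F3, chr11:96214461-96214727, with 14 and 12 HELLS reads. The highest of the E2f3-/- list was in HoxD, chr2:74542676-74543984, with 44 wild-type and 59 E2f3-/- HELLS reads, beside 75 and 30 E2F3 and 147 and 64 H3K27me3 reads. At that HoxD site the unscaled E2F3 and H3K27me3 counts were lower in E2f3-/- cells, while the scaled HELLS ratio was 1.33 (0.886 to 2.01), an interval that includes 1.

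Merged, the HELLS lists gave 13 regions. In E2f3-/- cells 0 were lower, against 4.65% of all 5962 HELLS regions, and 3 were higher, against 5.2%. The 3 were chr6:52114251-52114669 in HoxA with 1 and 10 HELLS reads (9.93, 1.41 to 431), chr6:52125510-52126051 in HoxA with 6 and 17 (2.81, 1.06 to 8.72), and chr2:74584376-74585113 in HoxD with 9 and 27 (2.98, 1.36 to 7.20). All 3 were in the E2f3-/- list alone. With the shared-median scaling 2 were higher. The HoxD site lies in the stretch chr2:74582001-74592000, where HELLS went from 37 to 74 reads (1.99, 1.32 to 3.03) and H3K27me3 from 472 to 138 (0.393, 0.322 to 0.476). Of the 23 long stretches it was the only one with HELLS above wild type by its interval. The stretch chr2:74561001-74567000 in HoxD was the only one below, with 37 and 21 HELLS reads (0.564, 0.313 to 0.988).

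E2F3 fell below wild type by its interval in 3 of the 23 long stretches: chr6:52114001-52128000 in HoxA with 93 and 52 reads (0.581, 0.406 to 0.825), chr6:52153001-52168000 in HoxA with 140 and 87 (0.646, 0.488 to 0.850), and chr11:96112001-96117000 in HoxB with 27 and 11 (0.423, 0.190 to 0.882). The last of these also had the highest H3K27me3 ratio of the 23. The median E2F3 ratio of the 23 was 0.968, and 22 of the 23 lay above 1 with the shared-median scaling.

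Long runs without any H3K27me3 peak were found in all 4 clusters and held few reads of any antibody. The longest was in HoxB, chr11:96079001-96096000, with 73 wild-type and 75 E2f3-/- H3K27me3 reads, 39 IgG reads, 18 and 22 E2F3 reads and 36 and 32 HELLS reads over 17 kb. The longest of HoxA, chr6:52142001-52153000, begins inside the highest E2F3 peak and held 81 and 48 H3K27me3 reads. HoxC had one of 9 kb at its first edge, chr15:102730001-102739000, with 52 and 50 reads, and HoxD one of 7 kb at its last edge, chr2:74603001-74610000, with 30 and 41 reads. Over all unmarked bins, H3K27me3 was still 2.84-fold (2.63 to 3.07) over IgG in wild type and 3.13-fold (2.89 to 3.39) in E2f3-/- cells, while E2F3 (1.06 and 0.923) and HELLS (0.950 and 0.957) were at the IgG level, with intervals that include 1.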

How the data were processed

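ChIP-seq reads of 8 samples (6 ChIP libraries and 2 identical IgG files) were used, 1 per group. The build was mm9, per the submitters' processing notes, and the aligner is not given in the sources used here. Per the file headers, each ChIP library went through MACS 1.4.0beta with a control named IgG of its genotype (3444066 and 3791438 tags). The deposited IgG file, with 7219419 distinct reads, is larger than either control, and whether it pools both was not tested. The deposited lists give tag counts, a score (10 times the negative log10 of p), a fold enrichment ratio and a false discovery rate in percent per peak, all the authors' own values.

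Positions of the deposited reads were kept once per position and strand, shifted 60 bp, and counted in 1 kb bins and peak regions. Ratios were scaled on reads outside all peaks and carry exact 95% intervals, from Clopper-Pearson binomial limits of 2 counts or the conditional odds ratio of 4 counts, and shares carry Clopper-Pearson intervals. A pseudocount of 0.5 was used for log2 ratios only. Calls and intervals were checked on simulated data. With 1 library per group there is no p-value. Named were the peaks in the windows (the 10 highest per list, and others singled out after their values were seen), the marked stretches of 5 kb or more, and set extremes per cluster; tallest bins and peak-free runs were added afterwards. Members and lists were chosen with earlier results of these data known. Tools were Python 3.11.15, numpy 2.4.6, scipy 1.17.1 and pandas 2.3.3. Alternatives covered scaling, duplicates, shift, bin size, the definition of marked bins, thresholds and joining gap.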

Additional observations from a re-analysis of the deposited data

How the results depend on the processing

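Of 77 alternatives for the measured values, 53 stayed within the main interval or within 1.5 times the main count, 21 moved and 3 changed side. Keeping every deposited read or leaving reads unshifted moved none. The ChIP files held only 1640 to 2705 repeated lines each, so keeping every read could hardly move a value. The scaling alternatives of the Hox-to-other domain quotient equal its main value by construction and are counted as unchanged. Scaling on the median of shared regions gave 1.21 for H3K27me3 and 1.83 for E2F3 over the Hox windows, both on the other side of 1, 0.879 for HELLS, 0.892 for H3K27me3 in marked bins, and 12 lower and 35 higher H3K27me3 regions. That scaling takes the median ratio of the shared regions as 1, so any change common to them is removed. Scaling on all distinct reads gave 0.664, 0.874 (E2F3) and, in marked bins, 0.488. For H3K27me3 in marked bins, any overlap gave 0.497, peaks of score 100 or more 0.415 and E2f3-/- peaks 0.481; leaving out bins with an E2F3 or HELLS peak, chosen after seeing the data, gave 0.465, and E2F3 over the windows without E2F3-peak bins, also added, 0.872. With bins chosen on E2f3-/- peaks the contrast over IgG was 1.86 (wild type) and 1.58 (E2f3-/-) for E2F3 and 1.45 for HELLS in E2f3-/- cells; without bins holding a peak of the same antibody these were 1.15, 1.10 and 1.08. At score 100 or more, peak cover was 25.1% in wild type and 5.84% in E2f3-/- cells, and 1 H3K27me3 region was higher. Joining peaks across 2 kb gave a Hox-to-other domain quotient of 0.994 in place of 1.04. Except where an alternative used fewer bins or peaks by construction, the cause was not tested. No paired analysis was possible because each group is 1 library, and no replicate could be left out. Depth limits single bins, with a median of 5 IgG reads, and single peaks, and 12 of 590 bins had no IgG read.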
